A study of Mus musculus with 9 samples.

Results

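The genes of mitochondrial protein import and quality control were followed in mouse embryonic stem (ES) cells on 9 microarrays. They were chosen by name and not by any measured value, though with earlier results of these data known. The rule took all probe sets with exactly 1 annotated symbol that starts with Timm or Tomm, or that is Pmpca, Pmpcb, Hspd1, Hspe1, Hspa9, Grpel1, Grpel2, Lonp1, Clpp, Clpx, Pam16, Samm50, Chchd4 or Gfer. This gave 48 of the 35557 probe sets in the deposited table, which stand for 39 of 19938 genes. The 3 groups were cells given a let-7c mimic, cells given a miR-294 mimic and mock transfected cells, with 3 biological replicates each. All 9 cultures carried the Dgcr8 -/- genotype, which takes away a protein needed to process most microRNAs, and all were grown without leukaemia inhibitory factor (LIF) for 12 h after transfection. The mimics were used at 50 nM with Dharmafect 1. No group received a control mimic, so any difference from mock also holds the effect of transfected RNA as such, and the sources used here do not say whether the cells came from 1 clone.

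Nearly all mitochondrial proteins are made in the cytosol and imported. Precursors are recognised by receptors of the TOM complex and cross the outer membrane through its channel. Proteins with a presequence then pass the TIM23 translocase and are pulled into the matrix by a motor built around the chaperone Hspa9. Membrane-spanning carrier proteins are instead handed by small TIM chaperones of the intermembrane space to the TIM22 translocase. In the matrix a peptidase removes the presequence, the Hspd1 and Hspe1 chaperonin folds the arriving chain, and the Lonp1 and ClpXP proteases remove damaged or surplus proteins. ES cells are known for few and immature mitochondria. Of the transfected microRNAs, let-7c belongs to a family abundant in differentiated cells, and miR-294 to the miR-290 family of ES cells.

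The mature sequences of the named microRNAs are shown because the mimics are what sets the groups apart. They are taken from RefSeq (GRCm38.p6), 5′ to 3′, with the seed (bases 2 to 8) in capitals. The labels do not name the arm of miR-294, and the 3p arm, which carries the seed known for this family, is given. The seeds differ.
mmu-let-7c-5p: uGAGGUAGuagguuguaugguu
mmu-miR-294-3p: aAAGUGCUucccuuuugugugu

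The values are log2 intensities as the authors deposited them. No header states their scale, which was inferred from their range, and all differences depend on it. A gene is given by its brightest probe set, and a level is compared only between groups and never between genes. Within groups, the lowest correlation between arrays over the 13182 genes tested was 0.995, and with 3 arrays per group their number limits the precision. Dgcr8 itself read 8.85, 8.94 and 8.91 with let-7c, 9.13, 9.07 and 9.07 with miR-294, and 8.93, 9.08 and 9.03 with mock. The sources used here do not give the deleted stretch of the gene, and these values check neither the genotype nor the labels. All 8 ES cell markers looked at, among them Pou5f1, Sox2 and Nanog, were bright enough to be tested. Their summed level moved with the groups, at 15.46 to 15.49 with let-7c, 15.63 to 15.70 with miR-294 and 15.55 to 15.61 with mock (log2 of the summed intensities, range over 3 arrays). Against mock, by the threshold defined below, 5 of 8 were called lower with let-7c (Sox2, Nanog, Zfp42, Utf1 and Esrrb). With miR-294, 4 of 8 were called higher (Zfp42, Utf1, Esrrb and Tdgf1). Of all genes tested, 14.8% were called lower with let-7c and 20.7% higher with miR-294. Pou5f1 and Dppa5a were called with neither mimic. Of 6 feeder fibroblast markers 5 were tested, while the fibroblast matrix gene Postn was too dim to test. Their sums overlapped, at 10.67 to 10.88 with let-7c, 10.77 to 10.88 with miR-294 and 10.71 to 10.84 with mock. Only Col3a1 was called, higher with miR-294 than with mock (0.16 ± 0.06, limma adjusted p = 0.0372). The sum over 4 neurectoderm markers was 10.43 to 10.54 with let-7c, 10.22 to 10.35 with miR-294 and 10.19 to 10.30 with mock. Of these 4, only Nes was called against mock with let-7c and only Neurog2 with miR-294, both higher. Over 6 primitive endoderm markers the sum was 9.71 to 9.80 with let-7c, 9.63 to 9.74 with miR-294 and 9.54 to 9.68 with mock. Only 3 of these 6 were bright enough to be tested, and only Gata4 was called higher with let-7c and only Sox7 with miR-294. For the 4 trophoblast markers the sum was 9.13 to 9.23 with let-7c, 9.01 to 9.11 with miR-294 and 8.93 to 9.08 with mock. Only 2 of these 4 were tested, and only Gata3 was called, higher with let-7c than with mock. The part of these markers in the results was not tested, and in bulk RNA fewer cells of a type and less RNA per cell cannot be told apart.

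Of the 39 genes, 38 were tested. The exception was Timm8a2, a close relative of Timm8a1, which was dim in all groups (5.75 to 5.87 with let-7c, 5.56 to 5.84 with miR-294 and 5.59 to 5.66 with mock). A gene was called changed where the Benjamini-Hochberg adjusted p of the limma fit over all 13182 genes was under 0.05, and differences carry ± 1 standard error. With miR-294, 23 of the 38 rose against mock and 0 fell, where 20.7% of all genes tested were called higher and 21.1% lower, 41.9% in either direction. For the count of 0 falls, limma gave 0 at an unadjusted p under 0.05 too, and the only negative differences were those of Timm44 (adjusted p = 0.503) and Tomm34 (adjusted p = 0.889). With let-7c, 2 rose against mock and 11 fell, where 13.9% of all genes were called higher and 14.8% lower, 28.7% in either direction. The 11 falls became 6 when let-7c replicate 2 was left out and 5 when mock replicate 1 or 2 was. They became 7 with quantile normalization or no filter. The 2 rises became 1 without replicate 3 of let-7c or of mock. Other settings raised the counts. The replicate number as a block gave 12 falls and 3 rises. The filter at the 60th percentile gave 13 falls and 3 rises, as did the intensity trend with a robust prior. Rises also numbered 3 under quantile normalization, and in the fits lacking replicate 2 of let-7c or of mock. All 3 let-7c arrays lay above all mock arrays in 5 of the 38 and below them in 17, against 22.0% and 21.9% of all genes. With miR-294 the arrays lay above mock in 28 of the 38 and below in 0, against 28.3% and 25.5% of all genes. When the mimics were compared directly, 27 of the 38 were lower with let-7c than with miR-294 and 0 were higher, where 24.5% and 26.2% of all genes were called, 50.8% in either direction. The median log2 difference over the 38 genes was -0.07 for let-7c against mock, 0.19 for miR-294 against mock and -0.24 for let-7c against miR-294. The medians of all genes tested were 0.02, 0.02 and -0.01. These 3 comparisons share groups, so they are not independent of each other.

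**Figure D1:**
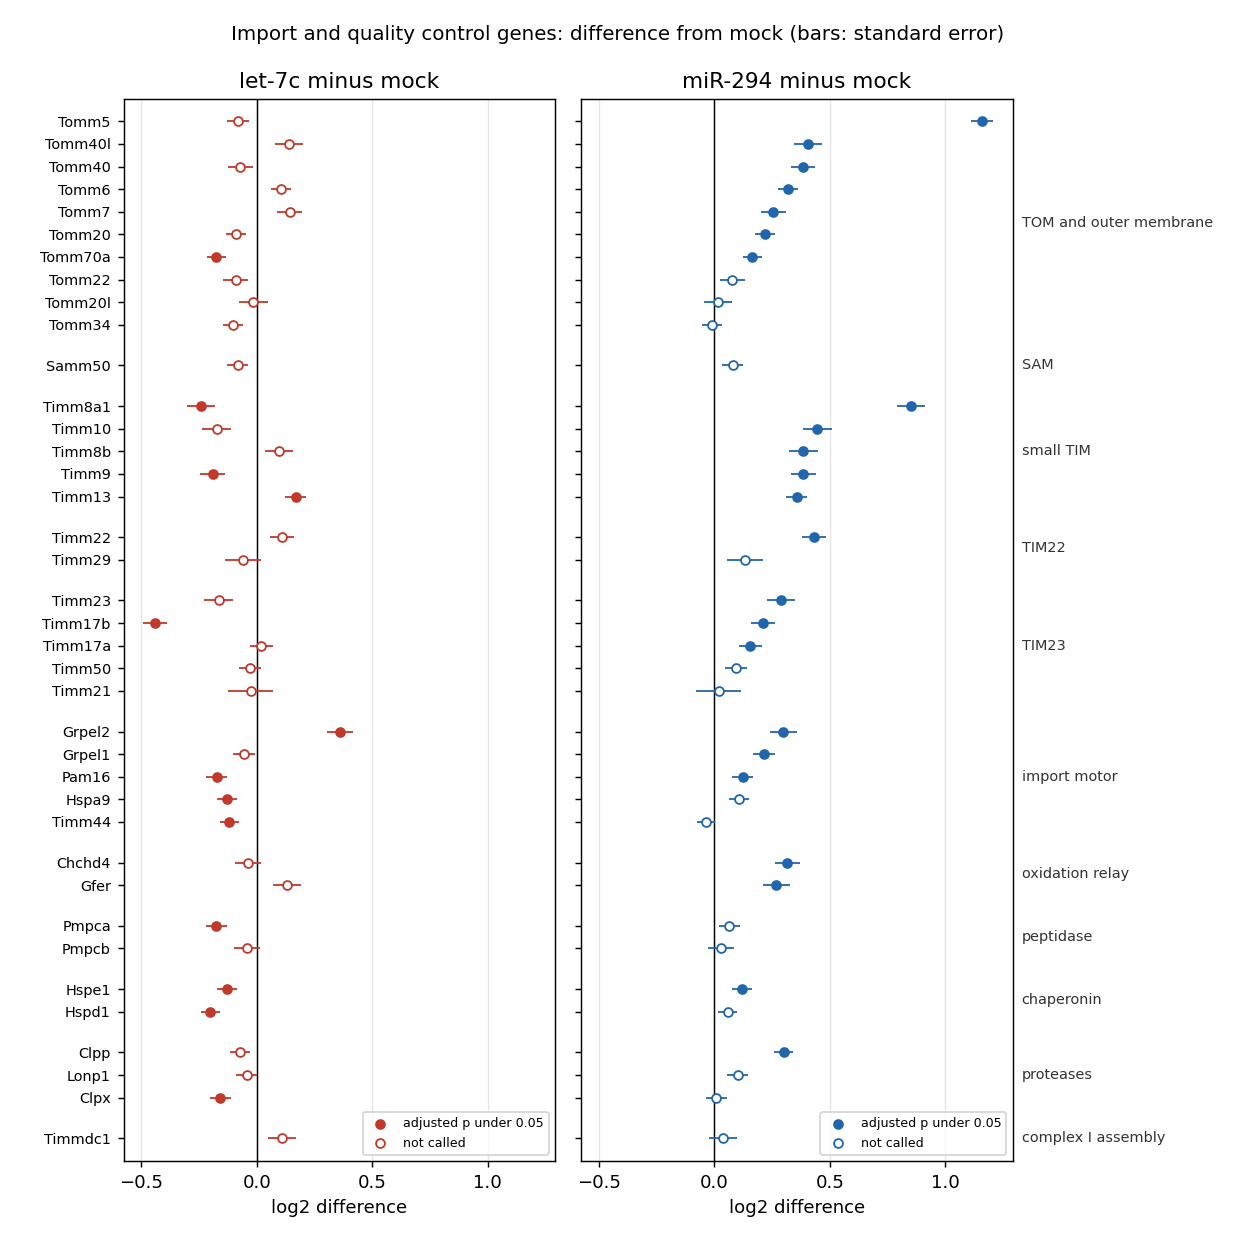
Log2 difference from mock of the 38 tested genes, grouped by role down the page, for let-7c (left, red) and miR-294 (right, blue); bars are standard errors and filled points have an adjusted p under 0.05. With miR-294 the points run from -0.04 for Timm44 to 1.16 for Tomm5, while with let-7c they run from -0.44 for Timm17b to 0.36 for Grpel2.

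The TOM complex and its relatives, the entry gate of the outer membrane, rose with miR-294 in 7 of 10 genes and fell in 0. Of all genes tested, 20.7% were called higher with miR-294 and 21.1% lower. Tomm5, a small subunit that in yeast helps pass precursors to the channel, changed most of the 38. Its log2 intensity was 8.82, 8.71 and 8.79 with let-7c, 10.03, 10.06 and 9.95 with miR-294, and 8.85, 8.87 and 8.84 with mock. All 3 miR-294 arrays lay more than 1 log2 unit above every other array, whereas the let-7c arrays lay just below mock. Tomm5 rose 2.23-fold with miR-294 (1.16 ± 0.05, adjusted p = 3.47e-08) and did not pass the threshold with let-7c (-0.08 ± 0.05, adjusted p = 0.23). It was the only 1 of the 38 to reach a 2-fold difference from mock.

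Tomm40, which forms the channel itself, read 10.82, 10.92 and 10.93 with let-7c, 11.27, 11.38 and 11.39 with miR-294, and 11.01, 10.97 and 10.91 with mock. Its rise with miR-294 was 0.38 ± 0.05 (adjusted p = 0.000172), while the let-7c and mock arrays overlapped (-0.07 ± 0.05, adjusted p = 0.35). Tomm40l, a second gene for a channel-like protein, read 8.47, 8.51 and 8.50 with let-7c, 8.72, 8.82 and 8.74 with miR-294, and 8.26, 8.50 and 8.30 with mock. It too rose with miR-294 (0.41 ± 0.06, adjusted p = 0.000364), and 1 mock array at 8.50 reached the let-7c values. The let-7c difference of Tomm40l did not pass (0.14 ± 0.06, adjusted p = 0.117), but without that array, mock replicate 2, it was a called rise of 0.21 (0.0162). The small subunits Tomm6 (0.32 ± 0.04) and Tomm7 (0.26 ± 0.05) rose with miR-294. With let-7c neither passed the threshold (0.11 ± 0.04 and 0.14 ± 0.05), though Tomm7 did in the fit with a replicate block (adjusted p = 0.0315, against 0.0718 without it). Tomm7 also passed with quantile normalization (0.0365), the stricter filter (0.0468) and an intensity trend with robust prior (0.0323).

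The receptors of the complex gave mixed results. Tomm20, the presequence receptor, read 11.21, 11.28 and 11.27 with let-7c, 11.56, 11.60 and 11.52 with miR-294, and 11.32, 11.35 and 11.36 with mock. The 3 groups did not overlap in any pairing, and the rise with miR-294 passed the threshold (0.22 ± 0.04, adjusted p = 0.00193) while the let-7c difference did not (-0.09 ± 0.04, adjusted p = 0.14). Tomm70a, the receptor for carrier proteins and other precursors without a presequence, read 11.46, 11.47 and 11.43 with let-7c, 11.82, 11.77 and 11.78 with miR-294, and 11.66, 11.63 and 11.59 with mock. It fell with let-7c (-0.17 ± 0.04, adjusted p = 0.00982) and rose with miR-294 (0.16 ± 0.04, adjusted p = 0.00854), and the fall was lost only under quantile normalization (0.0506). Tomm22, the central receptor, read 10.61, 10.49 and 10.55 with let-7c, 10.68, 10.80 and 10.69 with miR-294, and 10.62, 10.72 and 10.59 with mock. These groups overlapped with mock on both sides, and neither difference passed the threshold (-0.09 ± 0.05 with let-7c and 0.08 ± 0.05 with miR-294). The cytosolic co-chaperone gene Tomm34 and the receptor relative Tomm20l did not pass it either, with differences between -0.10 and 0.02. Samm50, which inserts barrel-shaped proteins such as Tomm40 into the outer membrane, was at -0.08 ± 0.05 with let-7c and 0.08 ± 0.05 with miR-294, neither called.

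The small TIM chaperones carry hydrophobic precursors across the intermembrane space. All 5 tested genes rose with miR-294, by 0.36 to 0.85, against 20.7% of all genes tested. Timm8a1, whose human counterpart is mutated in a deafness and dystonia syndrome, read 8.22, 8.40 and 8.36 with let-7c, 9.45, 9.43 and 9.39 with miR-294, and 8.59, 8.65 and 8.47 with mock. Every let-7c array lay below every mock array and every miR-294 array well above. Timm8a1 rose 1.81-fold with miR-294 (0.85 ± 0.06, adjusted p = 1.58e-06) and fell with let-7c (-0.24 ± 0.06, adjusted p = 0.0128), a fall that did not pass the threshold without mock replicate 2 (0.0562). Timm9 and Timm10 form the main chaperone ring together. Timm9 read 7.49, 7.41 and 7.50 with let-7c, 8.0, 8.09 and 8.04 with miR-294, and 7.75, 7.62 and 7.59 with mock. Timm10 read 9.10, 8.84 and 8.91 with let-7c, 9.60, 9.52 and 9.59 with miR-294, and 9.12, 9.13 and 9.12 with mock. Both partners were lowest with let-7c and highest with miR-294, without overlap. Both rose with miR-294 (Timm9 0.39 ± 0.05, adjusted p = 0.000177; Timm10 0.45 ± 0.06, adjusted p = 0.000212). With let-7c, Timm9 fell (-0.19 ± 0.05, adjusted p = 0.0206), though no longer when let-7c replicate 2 (0.0680) or mock replicate 1 (0.0820) was left out. Timm10 did not pass (-0.17 ± 0.06, adjusted p = 0.0630), and its let-7c replicate 1 lay close to mock. It did pass with a replicate block (0.0392) and without let-7c replicate 1 (0.00482). The stricter filter (0.0415) and an intensity trend with robust prior (0.0392) called it too.

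The other ring is formed by Timm8 proteins with Timm13. Timm13 read 9.58, 9.56 and 9.63 with let-7c, 9.80, 9.79 and 9.74 with miR-294, and 9.45, 9.45 and 9.36 with mock. In contrast to Timm8a1 it was above mock with both mimics. It rose with let-7c (0.17 ± 0.05, adjusted p = 0.0169) and with miR-294 (0.36 ± 0.05, adjusted p = 9.58e-05), and the rise with let-7c was lost without let-7c replicate 3 (0.0613) or mock replicate 3 (0.0717). Timm8b read 8.93, 9.03 and 9.08 with let-7c, 9.34, 9.35 and 9.22 with miR-294, and 8.82, 9.01 and 8.91 with mock. Only its miR-294 arrays stood clear of mock (0.39 ± 0.06, adjusted p = 0.000473), and the let-7c difference was 0.10 ± 0.06 (adjusted p = 0.261). Timm22, the channel of the TIM22 translocase that receives these precursors, read 8.15, 8.09 and 8.16 with let-7c, 8.44, 8.48 and 8.44 with miR-294, and 7.94, 8.11 and 8.01 with mock. Its rise with miR-294 was 0.43 ± 0.05 (adjusted p = 6.08e-05), and the let-7c arrays overlapped with mock. Timm29, another subunit of that translocase, was not called against mock (-0.06 ± 0.08 with let-7c and 0.13 ± 0.08 with miR-294).

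**Figure D2:**
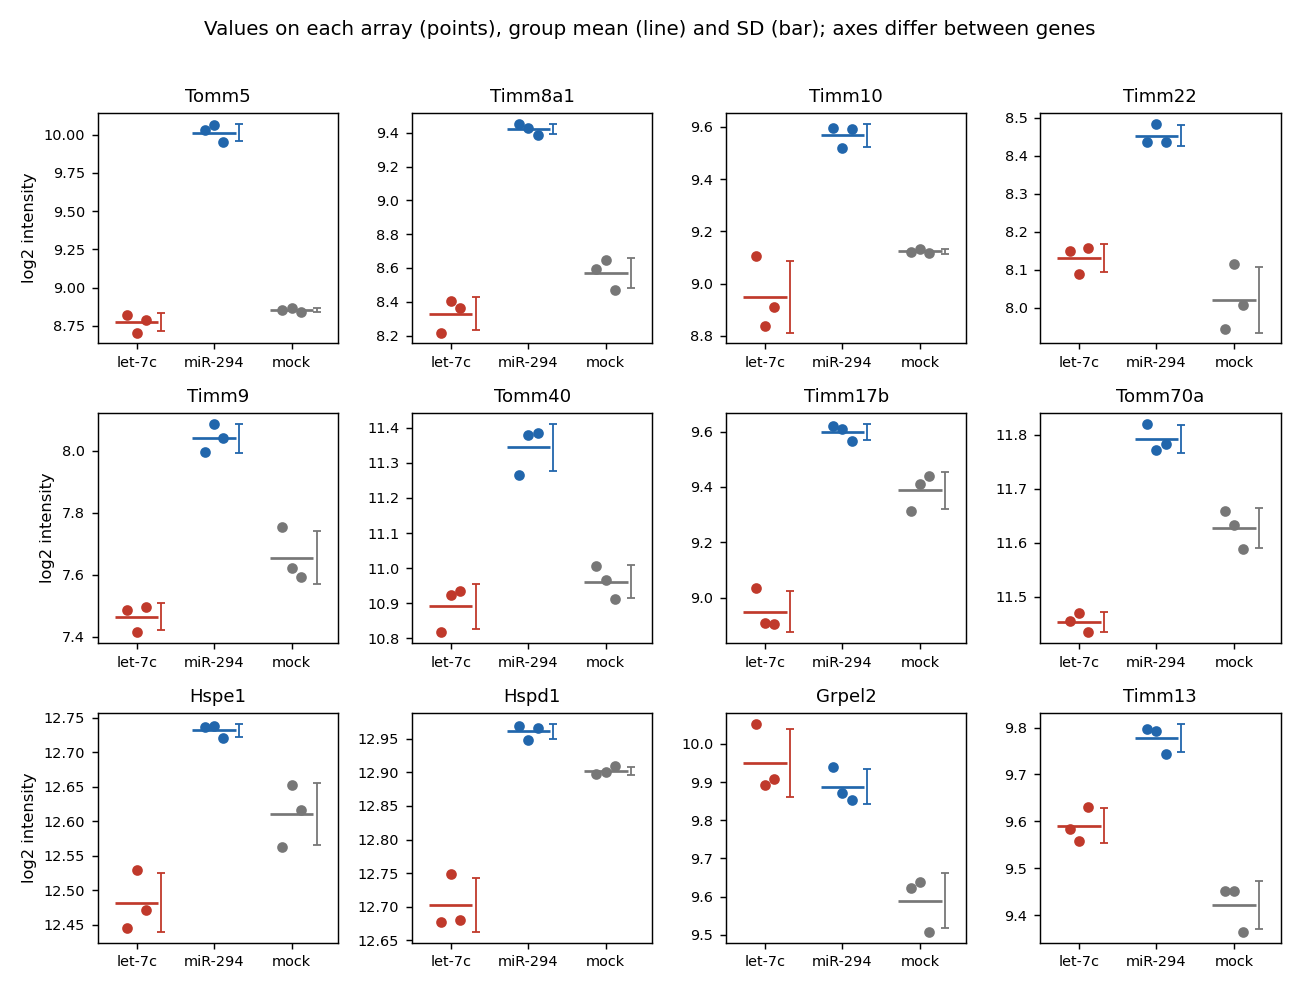
Log2 intensity on each array for 12 genes, with let-7c, miR-294 and mock from left to right; points are arrays, lines group means and bars SD (n = 3), and the vertical axes differ between genes. Tomm5 stood near 10 on the miR-294 arrays and below 8.9 on the others, while Grpel2 and Timm13 were above mock with both mimics.

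The TIM23 translocase takes presequence proteins through the inner membrane. Its channel gene Timm23 read 11.71, 11.77 and 11.90 with let-7c, 12.22, 12.34 and 12.18 with miR-294, and 11.92, 12.01 and 11.95 with mock. Every miR-294 array was above mock and every let-7c array below it. Timm23 rose with miR-294 (0.29 ± 0.06, adjusted p = 0.00312), whereas the let-7c difference did not pass the threshold (-0.16 ± 0.06, adjusted p = 0.0672). It did pass without let-7c replicate 3 (0.0277), with the stricter filter (0.0445), with the mean of its probe sets (0.0485), with its dimmest one (0.0330) and with an intensity trend and robust prior (0.0211). Timm17a and Timm17b encode alternative versions of the partner subunit of Timm23. Timm17b read 9.03, 8.91 and 8.90 with let-7c, 9.62, 9.61 and 9.57 with miR-294, and 9.31, 9.41 and 9.44 with mock. It showed the largest fall of the 38 genes with let-7c (-0.44 ± 0.05, a fold of 0.738, adjusted p = 0.000157), called under all 18 alternatives, and rose with miR-294 (0.21 ± 0.05, adjusted p = 0.00739). Timm17a was at 0.02 ± 0.05 with let-7c (adjusted p = 0.787). With miR-294 it rose slightly (0.16 ± 0.05, adjusted p = 0.0258), a call that ended without miR-294 replicate 1 (0.0503) or 2 (0.0893), without mock replicate 1 (0.101) or 3 (0.0556), and with no filter on dim genes (0.0534). Whether the responses of Timm17a and Timm17b to let-7c differ was not tested. Timm50, the receptor of the complex, read 10.02, 10.03 and 10.12 with let-7c, 10.15, 10.19 and 10.20 with miR-294, and 10.04, 10.15 and 10.07 with mock. It was not called against mock with let-7c (-0.03 ± 0.05) or with miR-294 (0.09 ± 0.05, adjusted p = 0.138), apart from the miR-294 difference with arrays centred on the 75th percentile (0.0475). Timm21, which couples TIM23 to TOM, varied most among the let-7c arrays and was not called either, with differences of -0.03 ± 0.10 and 0.02 ± 0.10.

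The import motor held genes that moved in different directions. Grpel1 and Grpel2 encode alternative nucleotide exchange factors for Hspa9, the matrix Hsp70. Grpel2 read 10.05, 9.89 and 9.91 with let-7c, 9.94, 9.87 and 9.85 with miR-294, and 9.62, 9.64 and 9.51 with mock. All 6 mimic arrays were above all mock arrays. Grpel2 rose with let-7c (0.36 ± 0.06, adjusted p = 0.000937) and with miR-294 (0.30 ± 0.06, adjusted p = 0.00167), and was the largest rise of the 38 genes with let-7c. Grpel1 rose with miR-294 (0.22 ± 0.05, adjusted p = 0.00451) and was at -0.05 ± 0.05 with let-7c (adjusted p = 0.442). Hspa9 read 12.95, 12.92 and 12.88 with let-7c, 13.19, 13.11 and 13.15 with miR-294, and 13.07, 13.03 and 13.03 with mock. The 3 groups did not overlap, but the differences were small. Its fall with let-7c only just passed (-0.13 ± 0.04, adjusted p = 0.0475) and was lost in 11 of 18 alternatives, among them leaving out any 1 array other than miR-294 replicate 1 (0.0516 to 0.141). Its miR-294 difference did not pass (0.11 ± 0.04, adjusted p = 0.0697) except in 4 alternatives, of which the replicate block gave 0.0492. Pam16, which holds the J-domain protein of the motor in place, read 9.60, 9.55 and 9.63 with let-7c, 9.93, 9.89 and 9.85 with miR-294, and 9.82, 9.74 and 9.74 with mock. It fell with let-7c (-0.17 ± 0.05, adjusted p = 0.0156; lost without let-7c replicate 2, 0.0519, or mock replicate 1, 0.0642). It rose with miR-294 (0.12 ± 0.05, adjusted p = 0.0465), a call that ended in 8 of 18 alternatives, those without let-7c replicate 2 or 3, without any 1 miR-294 array, without mock replicate 2 or 3 and with no filter (0.05 to 0.133). Timm44, which tethers Hspa9 to the channel, fell with let-7c (-0.12 ± 0.04, adjusted p = 0.0466), a call lost without any 1 of the 9 arrays (0.0528 to 0.126), and was at -0.04 ± 0.04 with miR-294 (adjusted p = 0.503).

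Chchd4 and Gfer form the relay that oxidises and traps cysteine-rich proteins, the small TIMs included, in the intermembrane space. Both rose with miR-294, Chchd4 by 0.32 ± 0.06 (adjusted p = 0.000895) and Gfer by 0.27 ± 0.06 (adjusted p = 0.00414). Neither passed the threshold with let-7c (-0.04 ± 0.06 and 0.13 ± 0.06), although Gfer did, upwards, without let-7c replicate 2 (0.0171). The presequence peptidase showed no call with miR-294. Its alpha subunit gene Pmpca read 10.96, 11.04 and 11.09 with let-7c, 11.25, 11.28 and 11.28 with miR-294, and 11.17, 11.23 and 11.21 with mock, and the groups did not overlap. Pmpca fell with let-7c (-0.17 ± 0.05, adjusted p = 0.0151; 0.0602 without mock replicate 2) and was at 0.07 ± 0.05 with miR-294 (adjusted p = 0.271). The catalytic subunit gene Pmpcb was at -0.04 ± 0.06 with let-7c and 0.03 ± 0.06 with miR-294, neither called. Timmdc1, an assembly factor of respiratory complex I that shares the Timm prefix, was not called against mock (0.11 ± 0.06 and 0.04 ± 0.06).

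The matrix chaperonin was lower with let-7c. Hspd1, the barrel subunit, read 12.68, 12.75 and 12.68 with let-7c, 12.97, 12.95 and 12.97 with miR-294, and 12.90, 12.90 and 12.91 with mock. Hspe1, its lid, read 12.45, 12.53 and 12.47 with let-7c, 12.74, 12.74 and 12.72 with miR-294, and 12.56, 12.65 and 12.62 with mock. In both genes the order was let-7c, mock, miR-294 with no overlap between groups. Hspd1 fell with let-7c (-0.20 ± 0.04, adjusted p = 0.00411, called under all 18 alternatives) and was not called with miR-294 (0.06 ± 0.04, adjusted p = 0.271). Hspe1 passed narrowly in both directions, and only with the brighter of its probe sets for let-7c. Its fall with let-7c (-0.13 ± 0.04, adjusted p = 0.0491) was lost in 12 of 18 alternatives, every one that left out an array other than let-7c replicate 2 among them (up to 0.165). Its rise with miR-294 (0.12 ± 0.04, adjusted p = 0.0447) was lost in 9 of 18, among them leaving out let-7c replicate 3, any 1 miR-294 array or any 1 mock array (0.0511 to 0.155).

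Among the matrix proteases, Clpp, the proteolytic chamber of ClpXP, rose with miR-294 (0.30 ± 0.04, adjusted p = 0.000182) and was at -0.07 ± 0.04 with let-7c (adjusted p = 0.222). Its unfoldase partner Clpx fell with let-7c (-0.16 ± 0.04, adjusted p = 0.0224) and was at 0.01 ± 0.04 with miR-294 (adjusted p = 0.882). The fall of Clpx did not pass when let-7c replicate 2 (0.0711), mock replicate 1 (0.0770) or mock replicate 2 (0.0645) was left out, nor with no filter (0.0516). Lonp1, the other matrix protease, read 10.34, 10.23 and 10.23 with let-7c, 10.44, 10.37 and 10.43 with miR-294, and 10.34, 10.29 and 10.30 with mock. Its let-7c arrays overlapped with mock (-0.04 ± 0.05) and its miR-294 arrays lay just above (0.10 ± 0.05, adjusted p = 0.107), neither called.

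Read across both mimics, the calls against mock fell into 5 patterns. The commonest, in 15 of 38 genes (39.5%, against 13.1% of all genes tested), was a rise with miR-294 and no call with let-7c. Opposite calls, a fall with let-7c and a rise with miR-294, came in 6 genes (15.8%, against 4.46% of all genes): Hspe1, Pam16, Timm17b, Timm8a1, Timm9 and Tomm70a. The reverse, up with let-7c and down with miR-294, came in 0 of the 38 and in 4.06% of all genes. A fall with let-7c and no call with miR-294 came in 5 genes (13.2%, against 6.76% of all genes): Clpx, Hspa9, Hspd1, Pmpca and Timm44. A rise with both mimics came in Grpel2 and Timm13 (5.26%, against 3.18% of all genes). The remaining 10 genes were called with neither (26.3%, against 44.7% of all genes). A missing call with one mimic does not show that the mimics differ. Both sets of calls rest on the same 3 mock arrays.

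The direct comparison of the mimics, which tests whether their effects differ, called 27 of these 38 genes, against 50.8% of all genes tested. Of the 38 genes, 31 had every let-7c array below every miR-294 array, as did 28.3% of all genes tested, and 0 had the opposite, as 28.7% of all genes did. Tomm5 differed most (-1.24 ± 0.05, let-7c at 0.423 of the miR-294 level, adjusted p = 1.35e-08), followed by Timm8a1 (-1.09 ± 0.06, a fold of 0.468, adjusted p = 1.32e-07). These were the only genes of the 38 with a 2-fold difference. Next came Timm17b (-0.65 ± 0.05), Timm10 (-0.62 ± 0.06), Timm9 (-0.58 ± 0.05), Tomm40 (-0.45 ± 0.05) and Timm23 (-0.45 ± 0.06). By role, all 5 tested small TIM genes, all 3 protease genes and both chaperonin genes were lower with let-7c, as were 7 of 10 TOM genes, 3 of 5 TIM23 genes and 3 of 5 motor genes. Of all genes tested, 24.5% were called lower. Genes that had missed the threshold against mock with either mimic were called here: Tomm22 (-0.17 ± 0.05, adjusted p = 0.0217), Samm50 (-0.16 ± 0.05, adjusted p = 0.0109) and Lonp1 (-0.14 ± 0.05, adjusted p = 0.0235). Tomm22 was lost without let-7c replicate 2 (0.0813) or 3 (0.0504), without miR-294 replicate 2 (0.0925) and under quantile normalization (0.0720). Lonp1 was lost without let-7c replicate 2 (0.0799) or 3 (0.0762), without miR-294 replicate 1 (0.0641) or 3 (0.0659), with no filter (0.0504) and under quantile normalization (0.160), and Samm50 only under the last (0.0728). Timm17a (-0.13 ± 0.05, adjusted p = 0.0401) was lost in 7 of 18 alternatives, without let-7c replicate 1 or 2, miR-294 replicate 1 or 2 or mock replicate 3 among them (0.0509 to 0.130), and reached 0.319 under quantile normalization. The 11 genes not called were Gfer, Grpel2, Pmpcb, Timm21, Timm29, Timm44, Timm50, Timmdc1, Tomm20l, Tomm34 and Tomm7, with differences from -0.19 to 0.07. Of these, Gfer passed as lower without let-7c replicate 3 (0.0237), Timm29 without miR-294 replicate 3 (0.0149), and Timm50 without let-7c replicate 3 (0.0326) or mock replicate 2 (0.0492). Timm29 (0.0135) and Timm50 (0.0409) also passed as lower with a replicate block. For the count of 0 higher genes, limma also gave 0 at an unadjusted p under 0.05, and Timmdc1 (0.07 ± 0.06, adjusted p = 0.357) was called higher in the single case that left out miR-294 replicate 1 (0.0397).

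**Figure D3:**
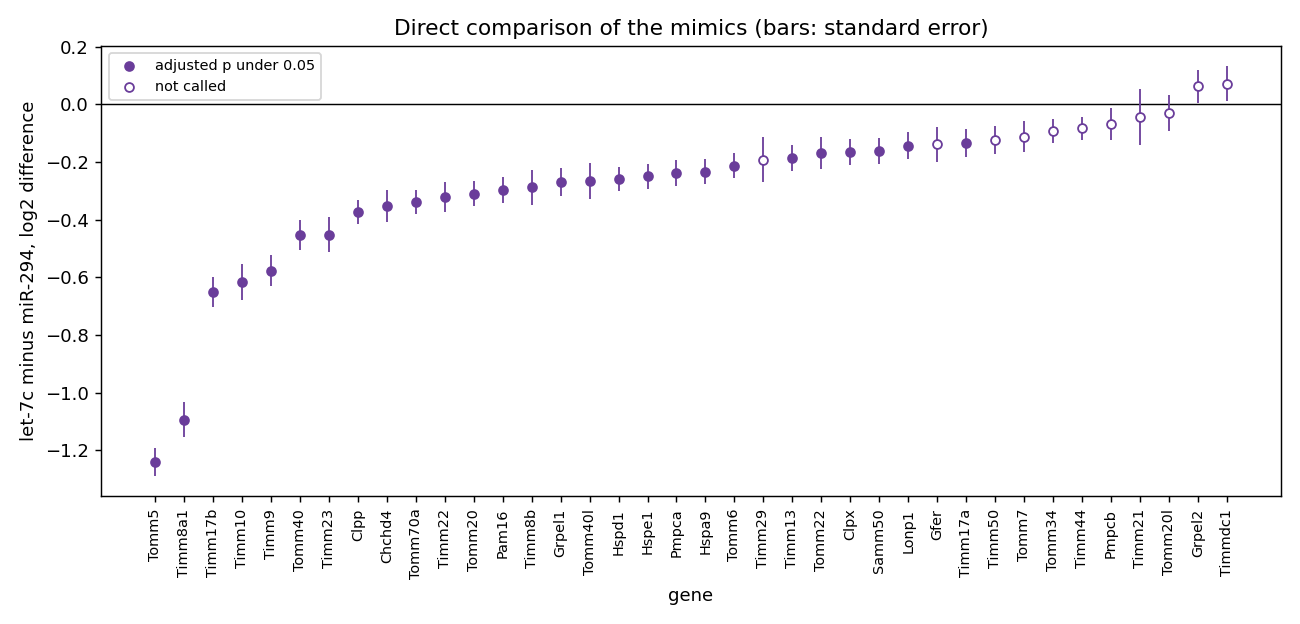
Log2 difference of let-7c minus miR-294 for the 38 tested genes, ordered by size along the horizontal axis; bars are standard errors, and filled points have an adjusted p under 0.05. Tomm5 at -1.24 and Timm8a1 at -1.09 stand apart, 27 points are filled and all of these lie below 0.

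Of the 39 genes, 7 had more than 1 probe set, 16 probe sets in all, and these served as a check of the readings. Genes of this kind can have processed copies elsewhere in the genome, so such probe sets can share targets and are not independent. The annotation used here names the gene of a probe set without its position, so whether the brightest probe set reads the gene itself or a copy was not tested. RefSeq lists Gm4816, with the synonym Timm23p, beside Timm23, and 2 of the probe sets for Timm23 held identical values on all 9 arrays. The probe sets of a gene had the same sign in all 7 genes in every comparison. Calls were the same within 7 of 7 genes for miR-294 against mock and for let-7c against miR-294, and within 5 of 7 for let-7c against mock. The second probe set for Timm8a1 gave 0.83 ± 0.06 with miR-294 and -0.26 ± 0.06 with let-7c, close to the first. For Hspe1 the dimmer probe set gave -0.08 ± 0.04 with let-7c (adjusted p = 0.146), which did not pass, and 0.15 ± 0.04 with miR-294 (adjusted p = 0.0102), which did. The dimmer probe set for Hspd1 gave a let-7c difference of -0.26 ± 0.04, and the largest gap within a gene against mock was this 0.06 in Hspd1.

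**Figure D4:**
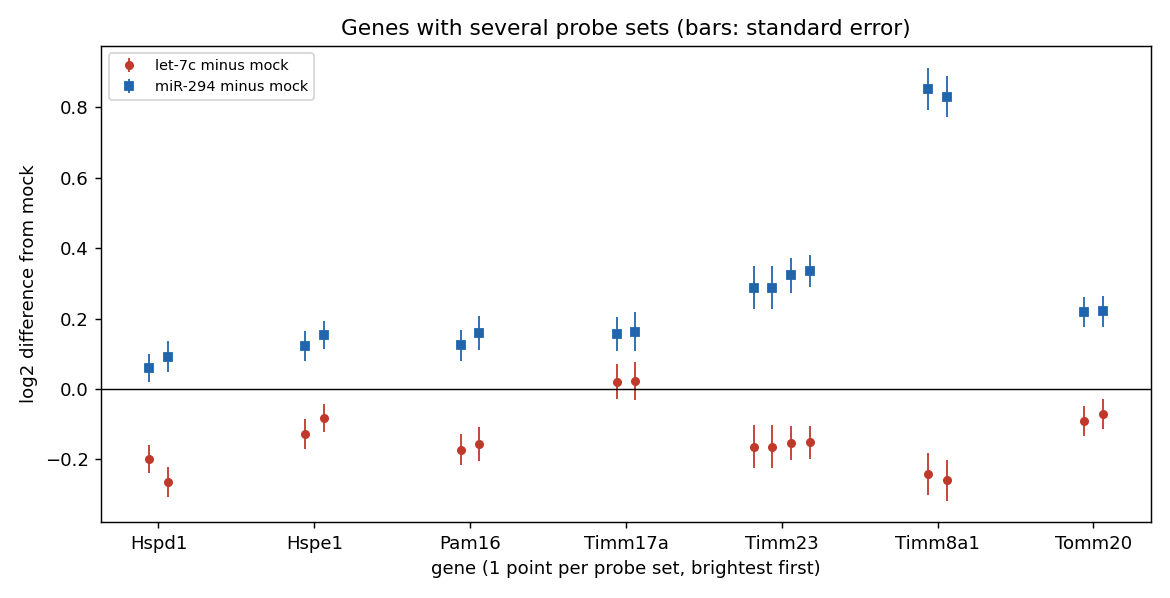
Log2 difference from mock of each probe set of the 7 genes that have several, with let-7c as red circles and miR-294 as blue squares; bars are standard errors and the brightest probe set of a gene is on the left. Within each gene the probe sets lie together, and Timm8a1 is near -0.25 with let-7c and 0.85 with miR-294 in both.

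Further genes of the pathway were read from lists that hold none of the 38. They cover other import genes, other quality control genes, the MICOS complex that shapes the inner membrane, and regulators of mitochondrial gene expression and stress. Of 45 such genes 44 were tested, the exception being Ppargc1a. With let-7c 3 rose and 15 fell, with miR-294 21 rose and 4 fell, and 5 were higher and 26 lower with let-7c than with miR-294. Of all genes tested, 13.9% rose and 14.8% fell with let-7c, 20.7% rose and 21.1% fell with miR-294, and 26.2% were higher and 24.5% lower between the mimics. The medians were -0.07, 0.12 and -0.18. Of the 18 other import genes, 2 rose and 4 fell with let-7c, 7 rose and 1 fell with miR-294, and 2 were higher and 9 lower in the direct comparison. Of the 12 other quality control genes, 0 rose and 5 fell with let-7c, 7 rose and 3 fell with miR-294, and 3 were higher and 8 lower in the direct comparison. The 6 MICOS genes gave 1 rise and 1 fall with let-7c, 2 rises and 0 falls with miR-294, and 3 lower in the direct comparison. Of the 8 regulators tested, 5 fell with let-7c, 5 rose with miR-294 and 6 were lower with let-7c than with miR-294. The 15 falls with let-7c became 9 without let-7c replicate 1, 8 without let-7c replicate 2, 9, 7 and 8 without mock replicate 1, 2 and 3, 9 with quantile normalization and 8 with no filter. The 3 rises with let-7c became 1 when let-7c replicate 3 or mock replicate 1 was left out and with no filter, and 5 with the stricter filter or a replicate block. The 5 genes higher between the mimics became 3 without miR-294 replicate 2 or 3. The block added Ddit3 (adjusted p = 0.0273), Dnlz (0.0266) and Immp1l (0.0399) to the rises and Phb2 (0.0255) to the falls with let-7c. With miR-294 it added Chchd6 (0.0469) to the rises and Hscb (0.0371) to the falls. These 6 genes were named after their values were seen.

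Among the regulators, Pprc1, a coactivator of nuclear genes for mitochondrial proteins, fell with let-7c (-0.42 ± 0.05, adjusted p = 0.000234) and rose with miR-294 (0.34 ± 0.05, adjusted p = 0.000421). Tfam, which packages and transcribes mitochondrial DNA, fell with let-7c (-0.34 ± 0.06, adjusted p = 0.00278) and rose with miR-294 (0.39 ± 0.06, adjusted p = 0.000571). Between the mimics they differed by -0.77 ± 0.05 and -0.73 ± 0.06, and Atad3a, an inner membrane ATPase gene, by -0.52 ± 0.05. Atf4, a transcription factor of the stress response, rose with miR-294 (0.35 ± 0.08, adjusted p = 0.00329) and was at -0.12 ± 0.08 with let-7c (adjusted p = 0.247; 0.0458 with a replicate block). Oxa1l, which inserts proteins into the inner membrane from the matrix side, fell with let-7c (-0.44 ± 0.04, adjusted p = 3.65e-05) and was not called with miR-294 (-0.10 ± 0.04).

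Some genes of these lists fell with miR-294 and stood higher with let-7c. Aifm1, the partner that anchors Chchd4, fell with miR-294 (-0.62 ± 0.05, adjusted p = 7.5e-06) and differed between the mimics by 0.48 ± 0.05. Pink1, a kinase that accumulates on mitochondria when import fails, fell with miR-294 (-0.34 ± 0.05, adjusted p = 0.000404), as did the protease subunit gene Spg7 (-0.27 ± 0.05, adjusted p = 0.000601). Between the mimics, let-7c was higher for Pink1 by 0.36 ± 0.05 and for Spg7 by 0.32 ± 0.05. Against mock, let-7c gave no call for Aifm1 (-0.13 ± 0.05, adjusted p = 0.0879), Pink1 (0.02 ± 0.05, 0.844) or Spg7 (0.04 ± 0.05, 0.539). With let-7c the largest rises were those of Mtch1, an outer membrane protein gene (0.23 ± 0.05, adjusted p = 0.00757), Romo1, a small subunit of the inner membrane translocases (0.16 ± 0.05, adjusted p = 0.0360), and the MICOS gene Micos10 (0.16 ± 0.05, adjusted p = 0.0487). Romo1 no longer passed when let-7c replicate 1 (0.0916) or 3 (0.107) or mock replicate 1 (0.132) or 3 (0.0959) was left out, or with no filter (0.0741). Micos10 was lost with a replicate block (0.0503), with no filter (0.0935), and without let-7c replicate 1 or 3, miR-294 replicate 2 or 3 or any 1 mock array (0.0504 to 0.160).

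Since 23 of these genes rose with miR-294, their promoters were read for 5 short motifs. RefSeq windows of 300 bases, from 250 before to 50 after the transcription start (GRCm38.p6), were held for 34 of the 39 genes, in 37 windows, and were set beside the 32851 windows of all genes and the 13214 of genes tested. Both strands were searched. CACGTG, an E-box that Myc proteins can bind, was in 18.9% of the import gene windows, 9.85% of tested gene windows and 7.15% of all windows. The Ets core CCGGAAG was in 43.2%, 16.0% and 8.86%, and the NRF1 core GCATGCGC in 8.11%, 4.91% and 2.71%. TATAAA was in 5.41%, 7.24% and 13.6%, and the cyclic AMP response element TGACGTCA in 0.0%, 2.94% and 1.79%. A match describes these letters and is not evidence of binding. The E-box was found for Hspd1, Timm10, Tomm20, Tomm20l, Timm9, Lonp1 and Timm8a1. Timm8a1, Timm9, Timm10 and Tomm20 are among the genes that rose with miR-294, and Hspd1, Lonp1 and Tomm20l are not, where 23 of all 38 tested genes rose. Of the genes with the Ets core, Hspe1, Timm10, Grpel1, Timm8b, Timm23, Tomm70a and Clpp rose. Hspd1, Pmpca, Pmpcb, Tomm34, Timm29, Tomm22 and Timmdc1 hold it too and were not called with miR-294, and Timm8a2 was not tested. Whether a motif goes with the rise was not tested.

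The windows of 4 genes are shown, 5′ to 3′ on the strand of the gene, with motif matches in capitals. Tomm5 and Timm8a1 had the largest differences between the mimics, Timm9 holds E-boxes at 58 bases and at 1 base before its start, and Hspe1 lies head to head with Hspd1, a gene that moved in the same order of groups. The Hspe1 window shares 285 of its 300 bases with 1 of the Hspd1 windows on the other strand, and its capitals are 2 overlapping Ets cores. In Timm8a1 both capital runs are E-boxes, at 236 bases before and 24 after the start. In Tomm5, which rose most, the only match is a TATAAA on the opposite strand at 240 bases before the start.
Tomm5 (chr4:45108064-45108363, minus strand): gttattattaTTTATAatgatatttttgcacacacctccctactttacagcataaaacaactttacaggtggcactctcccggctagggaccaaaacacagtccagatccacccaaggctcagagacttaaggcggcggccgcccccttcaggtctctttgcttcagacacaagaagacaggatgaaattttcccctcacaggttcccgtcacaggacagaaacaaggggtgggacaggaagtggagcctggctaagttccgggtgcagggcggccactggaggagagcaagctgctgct
Timm8a1 (chrX:134541621-134541920, minus strand): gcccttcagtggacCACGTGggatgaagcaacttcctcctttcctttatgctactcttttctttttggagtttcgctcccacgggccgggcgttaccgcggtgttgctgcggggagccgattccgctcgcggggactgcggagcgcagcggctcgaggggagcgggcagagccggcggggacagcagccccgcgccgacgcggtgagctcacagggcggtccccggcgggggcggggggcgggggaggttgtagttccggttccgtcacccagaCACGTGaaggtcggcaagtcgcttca
Timm9 (chr12:71136626-71136925, minus strand): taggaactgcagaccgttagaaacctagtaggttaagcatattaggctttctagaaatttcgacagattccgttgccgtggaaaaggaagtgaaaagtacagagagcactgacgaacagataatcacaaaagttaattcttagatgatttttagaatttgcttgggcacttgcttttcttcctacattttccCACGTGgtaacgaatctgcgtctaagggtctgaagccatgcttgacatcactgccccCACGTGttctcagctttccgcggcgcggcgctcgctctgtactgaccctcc
Hspe1 (chr1:55087898-55088197, plus strand): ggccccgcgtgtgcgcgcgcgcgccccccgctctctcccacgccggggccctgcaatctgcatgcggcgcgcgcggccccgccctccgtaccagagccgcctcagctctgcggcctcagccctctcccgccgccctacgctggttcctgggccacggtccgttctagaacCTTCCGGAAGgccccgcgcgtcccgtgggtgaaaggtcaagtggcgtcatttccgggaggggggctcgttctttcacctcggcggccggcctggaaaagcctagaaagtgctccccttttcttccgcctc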

How the data were processed

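RNA from the 9 cultures was hybridised to 1-colour arrays. The authors deposited 1 table of log2 values for 35557 probe sets, made with GCRMA per the submitters' processing notes, which corrects background, normalizes between arrays and sums the probes of a set; its version was not given in the sources used here. No header states the log2 scale, which was read from the range of the values. Array medians lay between 7.364 and 7.414.

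Probe sets were named from the platform annotation: 21789 had 1 symbol, 1621 had several and 12147 had none. Probe sets with several symbols or none were left out, among them 1 shared by Dnhd1 and Timm10b. Each of 19938 genes was read from its brightest probe set, and 13182 genes with at least 3 arrays above their own 40th percentile were tested; 6756 were not. All 3 groups entered 1 fit (limma 3.58.1 in R 4.3.3, lmFit and eBayes, 6 residual degrees of freedom), with Benjamini-Hochberg adjustment over all 13182 genes and a threshold of 0.05. The steps were tested on simulated data.

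Values were given per array for the 6 largest called rises and falls per comparison among genes whose groups did not overlap, for genes called in opposite directions by the mimics, and for 10 central genes (Tomm20, Tomm22, Tomm40, Tomm70a, Timm23, Timm50, Hspa9, Hspd1, Hspe1 and Lonp1). In the other pathway lists the 3 largest called changes in each direction were named. The genes, lists and tests were chosen with earlier results of these data known.

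The labels call the arrays biological replicates but do not say whether they are separate cultures or days, so p-values measure the spread between these samples, which may be technical. Same-numbered arrays deviated together for let-7c and mock (correlations 0.418, 0.301 and 0.133) and for miR-294 and mock (0.363, 0.272 and 0.283), so the numbers were taken to pair these groups. For let-7c and miR-294 the correlations were 0.215, 0.248 and 0.0285, which gave no clear pairing by themselves. Numbers that pair both mimic groups with mock would also pair the mimic groups with each other, so their blocked values are given too. Arrays with different numbers gave -0.361 to 0.149 for let-7c and mock and -0.218 to -0.0482 for miR-294 and mock. The 0.149 was that of let-7c replicate 3 with mock replicate 2, above its 0.133 with mock replicate 3. The pairing is thus not clear for that array. For let-7c and miR-294 they gave -0.257 to 0.071. The fit as planned has no block, and the blocked value is given where it changes a call. The other alternatives were leaving out each array, quantile normalization, centring on the 75th percentile, no filter, a filter at the 60th percentile, the mean of a gene's probe sets, testing probe sets singly, and an intensity trend with a robust prior. Reading the dimmest probe set of a gene was added after seeing the data. Sequences come from RefSeq tables on GRCm38.p6. The sources used here do not give the build behind the array annotation, and no coordinates of genes are printed apart from those windows.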

Additional observations from a re-analysis of the deposited data

How the results depend on the processing

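No call of the import genes changed sign in any alternative, of which 18 were run for each gene except Timm29 and Tomm20l, which had 17 because the stricter filter left them out. With miR-294, 20 of 23 calls against mock held in all 18, 3 were lost in at least 1 and 2 other genes were gained in at least 1. With let-7c only 3 of 13 calls held in all 18, those of Grpel2, Hspd1 and Timm17b, while 10 were lost and 5 others gained. Between the mimics 23 of 27 held, 4 were lost and 6 others gained. The cause of these changes was not tested, and fits that leave 1 array out also have fewer arrays. Leaving out 1 array at a time gave 1 to 3 higher and 5 to 9 lower import genes with let-7c (2 and 11 with all arrays), with a median of -0.091 to -0.0635. For miR-294 it gave 20 to 23 higher and 0 lower, with a median of 0.18 to 0.21, and between the mimics 0 to 1 higher and 24 to 28 lower, with a median of -0.25 to -0.22. Among the other pathway genes it gave 1 to 4 higher and 7 to 14 lower with let-7c (3 and 15 with all arrays), 15 to 21 higher and 3 to 5 lower with miR-294, and 3 to 7 higher and 23 to 27 lower between the mimics. With quantile normalization 7 import genes fell with let-7c, and the medians were -0.0401 with let-7c, 0.17 with miR-294 and -0.20 between the mimics. Without a filter, which adds dim genes to the adjustment, 7 fell with let-7c and the miR-294 median was 0.16. The miR-294 median was 0.21 with centring on the 75th percentile and also 0.21 with the stricter filter, and the median between the mimics was -0.26 with that centring. Of the other pathway genes, 9 fell with let-7c under quantile normalization and 8 without a filter; 1 rose without a filter and 5 with the stricter one. With the replicate number as a block, 5 other pathway genes rose with let-7c, and Timm29 (adjusted p = 0.0135) and Timm50 (0.0409) became lower with let-7c than with miR-294. Between the mimics the block also added Ddit3 (0.00589) and Mtch1 (0.0454) as higher and Dnaja3 (0.0333) and Ppargc1b (0.0470) as lower among the other pathway genes, genes named after their values were seen. Calls against mock that it changed are given beside their results. Few let-7c differences of these genes exceed 0.2, and 3 arrays per group leave a standard error near 0.05. Calls near the threshold were lost in fits without single arrays, and some also with quantile normalization or no filter.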

Other observations

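The small TIM gene Timm10b was measured only by a probe set that also carries the symbol Dnhd1, so its values belong to no comparison. They were 6.71, 6.72 and 6.75 on the let-7c arrays, 6.81, 6.94 and 6.85 on the miR-294 arrays, and 6.74, 6.75 and 6.68 on the mock arrays.

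The import genes had a lower median SD between arrays of a group than all genes tested. The genes were not matched for brightness, and its part in this was not tested. Their median within-group SD was 0.0566 in the let-7c arrays, 0.0388 in the miR-294 arrays and 0.0462 in the mock arrays, where all genes tested had 0.0676, 0.0640 and 0.0566. The most variable import gene was Timm21 for let-7c (SD 0.198), Timm29 for miR-294 (SD 0.151) and Tomm40l for mock (SD 0.130).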
